A study of Mus musculus with 12 samples.

Results

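The mouse genes described here are 10 genes around the YAP/TEAD transcription complex, namely Yap1, Wwtr1 (the gene for TAZ), Tead1, Lats2, Amotl2, Ajuba, Ctgf (also named Ccn2), Cyr61 (also named Ccn1), Ankrd1 and Axl. They were taken by name, from a list drawn up with earlier results of these data known, as the rows of the count table whose Entrez identifiers belong to these symbols or their synonyms. All 10 were found among the 26301 genes of the table, and 9 of them were among the 13882 genes that passed a filter on low counts, Ankrd1 being the exception.

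RNA was measured in 12 bulk liver libraries, 4 from non-tumor livers of adult wild-type mice and 4 each from spontaneous liver tumors of 2 mutant lines. In the line labelled DKO the E2f7 and E2f8 alleles were conditional, and in the line labelled TKO those of Rb1 as well. In both lines Alb-Cre, a Cre recombinase under the hepatocyte-specific albumin promoter, was to delete them, so that vessels, stellate cells and immune cells in the tumors should keep these genes. The tumors came from ageing mice and the labels call the controls adult. The labels name no treatment in any group and give no exact ages. For its histology the study describes control mice as littermates without Alb-Cre, examined at the same time point. Its text and the sample titles do not say this of the sequenced controls. E2f7 was read at only 4 to 24 counts per library. E2f8 was 6.24 ± 1.92 CPM (read counts scaled to the TMM-adjusted size of each library, mean ± SD, n = 4) in the control livers. It was 20.5 ± 17.2 in the DKO and 26.1 ± 18.5 in the TKO tumors, so neither gene's level went the way of a deletion. Counts per gene do not show which exons the reads came from, so these levels cannot show whether the alleles were deleted. The groups are called "labelled DKO" and "labelled TKO" for that reason. Rb1 was lower in each of the 4 libraries labelled TKO (3.21 to 5.47 CPM) than in any of the other 8 (6.52 to 11.3 CPM).

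YAP1 and TAZ are paralogous coactivators without DNA-binding domains of their own, and they reach promoters and enhancers through the TEAD proteins. In the Hippo pathway the MST kinases activate the LATS kinases, which phosphorylate YAP1 and TAZ and so hold them in the cytoplasm or mark them for degradation. Much of this control acts on the proteins, which RNA counts do not measure. The transcriptional output is usually read from direct targets such as Ctgf, Cyr61, Ankrd1 and Axl, and Lats2, Amotl2 and Ajuba are both regulators and, in many cells, targets of the complex. In the liver the pathway is known for setting organ size and cell identity, with high YAP1 activity in bile duct cells and low activity in hepatocytes.

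TEAD proteins bind a short element with the core GGAATG. RefSeq promoters of the mouse build GRCm38.p6, each searched over the 250 bases before the start site on both strands, were matched for 8 of the 10 genes, Ctgf and Tead1 being the others. The core or its reverse complement CATTCC was in the promoters of 7 of these 8 genes (Yap1, Wwtr1, Amotl2, Ajuba, Cyr61, Ankrd1 and Axl), and in 14.4% of the 27025 genes of the whole promoter table, or 12.6% of its 32851 promoters. The 2 annotated Lats2 promoters held no match. The serum response element known as the CArG box was in none of the 8 genes and in 1.47% of all promoters. The promoters printed here are those of the coactivator pair Wwtr1 and Yap1, which are compared below, and of Ajuba and Cyr61, which had the largest fold changes in the tumors labelled DKO and TKO respectively. All 4 lie on the minus strand, are written in the direction of transcription and have the GGAATG core or its reverse complement in capitals. Wwtr1 (chr3:57575911-57576160) has its match 136 bases before the start, Yap1 (chr9:8004597-8004846) 141 bases before it, Cyr61 (chr3:145649986-145650235) 103 bases before it, and Ajuba (chr14:54577662-54577911) 186 and 164 bases before it.
Wwtr1: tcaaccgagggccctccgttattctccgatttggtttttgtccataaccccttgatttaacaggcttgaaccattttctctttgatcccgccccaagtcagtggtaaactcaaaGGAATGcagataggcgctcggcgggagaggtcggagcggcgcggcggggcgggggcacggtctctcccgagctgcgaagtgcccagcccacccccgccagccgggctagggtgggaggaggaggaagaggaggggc
Yap1: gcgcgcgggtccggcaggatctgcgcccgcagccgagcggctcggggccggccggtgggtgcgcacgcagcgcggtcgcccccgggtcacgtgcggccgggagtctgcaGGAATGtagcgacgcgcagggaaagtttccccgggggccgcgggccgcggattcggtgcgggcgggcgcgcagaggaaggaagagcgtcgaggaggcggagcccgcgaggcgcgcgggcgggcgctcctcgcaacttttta
Ajuba: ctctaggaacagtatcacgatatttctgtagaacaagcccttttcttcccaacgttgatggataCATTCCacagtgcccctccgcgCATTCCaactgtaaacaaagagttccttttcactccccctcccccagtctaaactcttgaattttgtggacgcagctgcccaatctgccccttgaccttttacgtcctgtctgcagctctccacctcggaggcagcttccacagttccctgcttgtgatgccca
Cyr61: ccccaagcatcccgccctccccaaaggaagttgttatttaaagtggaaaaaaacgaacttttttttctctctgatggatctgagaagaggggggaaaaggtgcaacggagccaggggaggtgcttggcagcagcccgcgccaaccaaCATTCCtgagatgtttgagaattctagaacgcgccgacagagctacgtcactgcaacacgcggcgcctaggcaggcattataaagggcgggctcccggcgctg
These matches describe letters in a window and are not evidence of binding in these livers.

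Total counts were 9165812 to 16424973 per library. In all 12 libraries the hepatocyte markers were the most abundant marker list, with summed levels of 86311 to 145562 CPM in the control livers, 129485 to 310440 in the DKO-labelled tumors and 58856 to 233691 in the TKO-labelled ones. One library stood apart for the YAP/TEAD genes: DKO-labelled tumor 3 held the highest value of the 12 libraries for 4 of the 9 tested genes (Tead1, Ctgf, Ajuba and Axl), while 6.42% of all tested genes were highest in it. TKO-labelled tumor 3 held the highest value for Cyr61 and Amotl2, as for 7.01% of all tested genes. Fold changes that rest on these 2 tumors are given with and without them.

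The comparison of each tumor line with the control livers asks which transcripts differ between the tumors of each labelled line and normal liver. Both comparisons used the same 4 control livers, so their results are not independent. Of the 9 tested genes, Wwtr1 alone passed the threshold in the tumors labelled DKO (edgeR's quasi-likelihood test, Benjamini-Hochberg adjusted p below 0.05 over all 13882 genes), against 2.42% of all tested genes, or 1.41% in the higher direction, and it did so too without DKO-labelled tumor 3. No member passed it in the tumors labelled TKO, where the share of all genes was 0.0864%, nor between the 2 tumor lines, where it was 0. At an unadjusted p below 0.05 the members numbered 2 (all genes 24%), 2 (16.3%) and 1 (9%) in these 3 comparisons. DESeq2, the tool named in the study, called 2, 1 and 0 of them, against 9.95%, 3.32% and 0.398% of all genes with an adjusted p.

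Yap1 (mm9, chromosome 9, 7931999 to 8004596, minus strand) encodes the better known of the 2 coactivators. It was 55.0, 71.8, 64.7 and 65.6 CPM in control livers 1 to 4. The tumors labelled DKO had 69.2, 70.8, 63.8 and 64.6 CPM, and those labelled TKO had 65.6, 74.8, 73.7 and 55.9 CPM. The 3 ranges overlapped, and that of the tumors labelled DKO lay within that of the controls. The log2 fold change was 0.06 with a standard error (SE) of 0.126 for the DKO label against control (adjusted p = 0.797) and 0.07 (SE 0.126, adjusted p = 0.831) for the TKO label against control, and between the tumor lines it was 0.01 (SE 0.126, adjusted p = 0.987).

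Wwtr1 (mm9, chromosome 3, 57259571 to 57379832, minus strand), which encodes TAZ, was higher in the tumors labelled DKO than in control livers. Control livers 1 to 4 had 20.8, 17.9, 16.6 and 20.2 CPM. The tumors labelled DKO had 44.0, 34.3, 28.5 and 41.0 CPM, and those labelled TKO had 39.3, 31.9, 20.7 and 39.4 CPM. Each DKO-labelled tumor lay above every control liver, whereas TKO-labelled tumor 3 lay just below the highest control. The group means were 18.9 ± 1.95, 37.0 ± 6.94 and 32.8 ± 8.81 CPM (SD, n = 4 each). In the tumors labelled DKO Wwtr1 rose by 0.97 on the log2 scale, a fold of 1.96 (SE 0.205, adjusted p = 0.0425). In those labelled TKO the log2 fold change was 0.80, a fold of 1.74 (SE 0.204, adjusted p = 0.132), and it did not pass the threshold; without TKO-labelled tumor 3 it was 0.96 (adjusted p = 0.0223). The TKO label against the DKO label gave -0.17 (SE 0.201, adjusted p = 0.819), so a difference between the lines was not shown. The DKO call was close to the threshold: leaving out 1 library at a time gave log2 fold changes of 0.86 to 1.08 with adjusted p-values of 0.0185 to 0.134, and 4 of these 12 fits kept the call. It was lost without control liver 1 (0.0551), 2 (0.134), 3 (0.131) or 4 (0.0657), without DKO-labelled tumor 1 (0.1001), 2 (0.0943) or 4 (0.0733) and without TKO-labelled tumor 1 (0.0535), these values being adjusted p-values. In a bulk library a change in the number of cells that express a gene and a change in RNA per cell cannot be told apart.

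**Figure D1:**
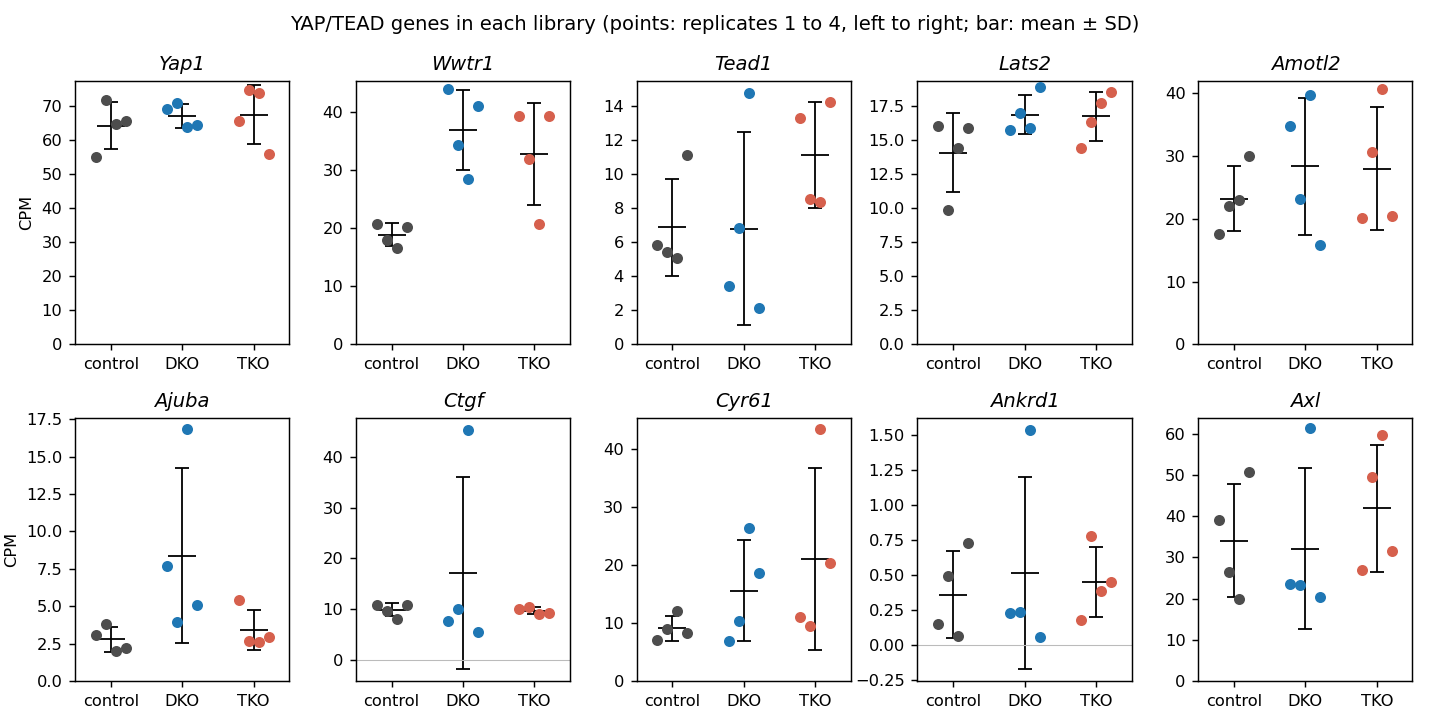
Levels of the 10 YAP/TEAD genes in CPM (vertical axes, one scale per gene) for the control livers and the tumors labelled DKO and TKO (horizontal axes). Each point is 1 library, replicates 1 to 4 from left to right, and the bar is the mean ± SD of 4 libraries; the DKO-labelled Wwtr1 points (28.5 to 44.0 CPM) all lie above the control points (16.6 to 20.8 CPM), and DKO-labelled tumor 3 stands high for Ctgf, Axl, Ankrd1, Ajuba and Tead1.

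The balance between the 2 coactivators was compared per transcript length, as a ratio of RPKM values (read counts scaled to library size and exon length), a measure chosen after the values had been seen and given without a test. Wwtr1 over Yap1 was 0.732, 0.484, 0.497 and 0.597 in control livers 1 to 4. It was 1.23, 0.939, 0.865 and 1.23 in the tumors labelled DKO, each above every control liver. It was 1.16, 0.826, 0.544 and 1.37 in the tumors labelled TKO, 3 of which lay above every control liver. A ratio of this kind does not depend on how libraries are scaled to each other. Per length, then, Wwtr1 was below Yap1 in all 4 control livers and above it in 2 tumors of each line.

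**Figure D2:**
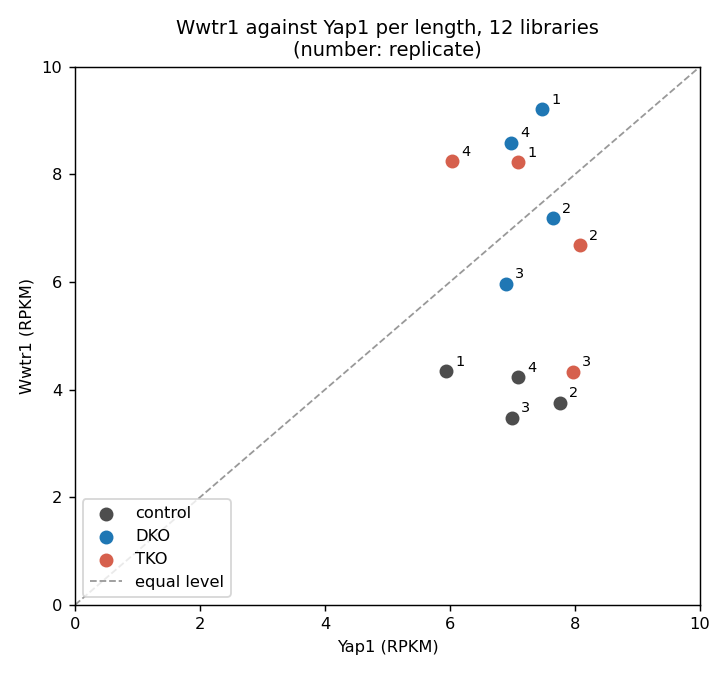
Wwtr1 (vertical axis, RPKM) against Yap1 (horizontal axis, RPKM) in the 12 libraries, with the replicate number beside each point and a dashed line of equal level. The control livers all lie below the line with ratios of 0.484 to 0.732, and 2 tumors labelled DKO and 2 labelled TKO lie above it.

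Tead1 (mm9, chromosome 7, 119822832 to 120050319, plus strand) encodes one of the 4 DNA-binding partners. It was 5.86, 5.41, 5.08 and 11.1 CPM in control livers 1 to 4, with control liver 4 well above the other controls. DKO-labelled tumors 1 to 4 had 3.45, 6.80, 14.8 and 2.12 CPM, the widest range of the 3 groups, and those labelled TKO had 13.3, 8.53, 8.36 and 14.2 CPM. The log2 fold change was -0.02 (SE 0.499, adjusted p = 0.989) for the DKO label against control, or -0.75 (adjusted p = 0.293) without tumor 3 of that label, and 0.69 (SE 0.497, adjusted p = 0.526) for the TKO label against control. Between the lines the difference of the TKO label from the DKO label was 0.71 (SE 0.495, adjusted p = 0.681), and without DKO-labelled tumor 3 it was 1.44 (adjusted p = 0.343). With SEs near 0.5, changes of the size seen for Wwtr1 could not be resolved for this gene.

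Lats2, Amotl2 and Ajuba act upstream of the coactivators. Lats2 (mm9, chromosome 14, 58260914 to 58377225, minus strand), one of the 2 kinases that phosphorylate YAP1 and TAZ, was 16.02, 9.84, 14.4 and 15.9 CPM in control livers 1 to 4. DKO-labelled tumors 1 to 4 had 15.7, 17.0, 15.9 and 18.9 CPM, and those labelled TKO 14.4, 16.3, 17.7 and 18.5 CPM. Both tumor groups overlapped the controls, and control liver 2 was the lowest library. The log2 fold changes were 0.26 (SE 0.160, adjusted p = 0.346) and 0.25 (SE 0.160, adjusted p = 0.469), and the 2 lines differed by -0.01 (SE 0.159).

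Amotl2 (mm9, chromosome 9, 102619002 to 102635748, plus strand) encodes an angiomotin, a junction protein that binds YAP1 and keeps it out of the nucleus. Control livers 1 to 4 had 17.7, 22.0, 23.0 and 30.1 CPM, the tumors labelled DKO had 34.7, 23.2, 39.8 and 15.8 CPM, and those labelled TKO had 20.1, 30.7, 40.7 and 20.4 CPM. Each tumor line held libraries on either side of the control mean. The log2 fold changes were 0.29 (SE 0.303, adjusted p = 0.594) for the DKO label and 0.27 (SE 0.304, adjusted p = 0.715) for the TKO label, and -0.02 (SE 0.302, adjusted p = 0.987) between the lines. Without tumor 3 of the respective line the first 2 values were 0.081 and 0.030.

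Ajuba (mm9, chromosome 14, 55186309 to 55196253, minus strand, listed there as Jub) encodes a LIM-domain protein that restrains the LATS kinases. It was low in control livers, at 3.04, 3.81, 2.03 and 2.20 CPM (30 to 41 counts). The tumors labelled DKO had 7.67, 3.95, 16.9 and 5.07 CPM (50 to 285 counts), each above every control, although DKO-labelled tumor 2 exceeded the highest control by little. The tumors labelled TKO had 5.43, 2.70, 2.61 and 2.91 CPM and overlapped the controls. The log2 fold change was 1.61 for the DKO label, a fold of 3.06 (SE 0.444, adjusted p = 0.0688), which missed the threshold with edgeR and passed it with DESeq2 (adjusted p = 0.0107). Without DKO-labelled tumor 3 it was 1.02 (adjusted p = 0.111). The TKO label gave 0.32 (SE 0.445, adjusted p = 0.774), and the difference between the lines, -1.29 (SE 0.434, adjusted p = 0.460), was not past the threshold and was -0.70 without DKO-labelled tumor 3. Wwtr1 and Ajuba were the 2 members whose libraries labelled DKO all lay above the controls, as did those of 8.87% of all tested genes. No member lay wholly below, and 16.2% of all genes were apart in either direction. For the TKO label against control and between the lines no member was apart in either direction, against 7.67% and 4.87% of all genes.

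Among the targets, Ctgf (mm9, chromosome 10, 24315248 to 24318489, plus strand), a secreted matricellular protein of the CCN family, was between 5.54 and 10.8 CPM in 11 libraries and far higher in 1. Control livers 1 to 4 had 10.8, 9.71, 8.13 and 10.8 CPM, and the tumors labelled TKO had 10.1, 10.4, 9.05 and 9.33 CPM. DKO-labelled tumors 1 to 4 had 7.67, 9.97, 45.3 and 5.54 CPM. The log2 fold change for the DKO label, 0.80 (SE 0.526, adjusted p = 0.378), rested on tumor 3 of that label, and without it the value was -0.35 (adjusted p = 0.313). For the TKO label it was -0.02 (SE 0.528, adjusted p = 0.993). Between the lines it was -0.82 (SE 0.524, adjusted p = 0.652) with DKO-labelled tumor 3 and 0.34 (adjusted p = 0.594) without it.

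Cyr61 (mm9, chromosome 3, 145309935 to 145312949, minus strand), the other CCN target, was 7.05, 8.97, 12.1 and 8.27 CPM in control livers 1 to 4. The tumors labelled DKO had 6.98, 10.4, 26.4 and 18.6 CPM, and those labelled TKO had 11.1, 9.45, 43.6 and 20.4 CPM. In each line 2 tumors lay above every control liver and the others within or below the control range. The log2 fold change was 0.78 (SE 0.494, adjusted p = 0.361) for the DKO label, and 0.40 (adjusted p = 0.655) without tumor 3 of that label. For the TKO label it was 1.21, a fold of 2.31 (SE 0.497, adjusted p = 0.256), and without TKO-labelled tumor 3 it was 0.58 (adjusted p = 0.493). Between the lines the difference was 0.43 (SE 0.485, adjusted p = 0.807) with that tumor and -0.20 (adjusted p = 0.958) without it. Cyr61 was therefore higher on average in both lines, but passed the adjusted threshold in neither. Its unadjusted edgeR p-value was 0.141 for the DKO label and 0.0309 for the TKO label, where 16.3% of all genes were below 0.05.

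Axl (mm9, chromosome 7, 26542292 to 26573724, minus strand), a receptor tyrosine kinase for the ligand GAS6, varied among the control livers themselves, at 39.1, 26.6, 19.9 and 50.7 CPM. The tumors labelled DKO had 23.5, 23.3, 61.5 and 20.3 CPM, and those labelled TKO 26.9, 49.4, 59.8 and 31.6 CPM. Except for tumor 3, the tumors labelled DKO lay in the lower part of the control range. The log2 fold changes were -0.08 (SE 0.400, adjusted p = 0.922) and 0.30 (SE 0.400, adjusted p = 0.766), and without DKO-labelled tumor 3 the former was -0.61 (adjusted p = 0.293). Without TKO-labelled tumor 3 the latter was 0.074 (adjusted p = 0.951). The lines differed by 0.38 (SE 0.400, adjusted p = 0.792), or by 0.90 (adjusted p = 0.422) without DKO-labelled tumor 3. Ankrd1 (mm9, chromosome 19, 36186455 to 36194334, minus strand), an ankyrin repeat protein induced in stressed heart muscle and a common reporter of YAP1 activity in cultured cells, was close to the limit of detection. It had 2, 4, 1 and 10 counts in control livers 1 to 4, 3, 3, 26 and 1 in the tumors labelled DKO and 3, 11, 5 and 6 in those labelled TKO. Its highest value was again in DKO-labelled tumor 3, and no fold change is given at these counts.

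As a list, the 9 tested genes had a median log2 fold change of 0.29 for the DKO label against control, 0.30 for the TKO label against control and -0.01 between the lines, beside medians of 0.02, 0.02 and 0.01 over all tested genes. Values above 0 were found for 7, 8 and 4 of the 9, against 51.6%, 52.5% and 51.2% of all genes. The median gene for the DKO label was Amotl2, at 0.081 without DKO-labelled tumor 3. Without that tumor Ctgf (-0.35), Axl (-0.61) and Tead1 (-0.75) were below 0, while Wwtr1, Ajuba (1.02), Cyr61 (0.40) and Lats2 stayed above it. The median gene for the TKO label was Axl, at 0.074 without TKO-labelled tumor 3. A rise of the list apart from these tumors was not tested.

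Per length, the order of the members in control livers ran from Yap1 (6.94 ± 0.752 RPKM; SD, n = 4) and Axl (6.77 ± 2.71) through Cyr61 (4.49 ± 1.07), Ctgf (3.96 ± 0.506), Wwtr1 (3.95 ± 0.407) and Amotl2 (3.69 ± 0.820) to Lats2 (1.92 ± 0.397), Ajuba (0.851 ± 0.253), Tead1 (0.611 ± 0.254) and Ankrd1 (0.204 ± 0.175). Only Amotl2 and Lats2, Lats2 and Ajuba, and Tead1 and Ankrd1 were neighbours whose ranges over the control livers did not overlap. In the tumors labelled DKO the highest mean level was that of Wwtr1 (7.74 ± 1.45 RPKM), followed by Cyr61 (7.69 ± 4.29), Yap1 (7.25 ± 0.371), Ctgf (6.88 ± 7.58) and Axl (6.39 ± 3.89), and these ranges overlapped. Without tumor 3 of that label, left out after its values were seen, the means were 8.33 for Wwtr1, 7.37 for Yap1, 5.91 for Cyr61, 4.45 for Axl and 3.10 for Ctgf (RPKM, n = 3), so that Yap1 came before Cyr61 and Ctgf fell below Amotl2 (3.91). In the tumors labelled TKO it was that of Cyr61 (10.4 ± 7.75 RPKM), followed by Axl (8.33 ± 3.06), Yap1 (7.29 ± 0.948) and Wwtr1 (6.87 ± 1.84), with overlapping ranges as well. Without TKO-labelled tumor 3 the order among these 4 was Wwtr1 (7.72 ± 0.899 RPKM, n = 3), Axl (7.14 ± 2.36), Yap1 (7.07 ± 1.02) and Cyr61 (6.74 ± 2.92), so the first place of Cyr61 rested on that tumor.

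**Figure D3:**
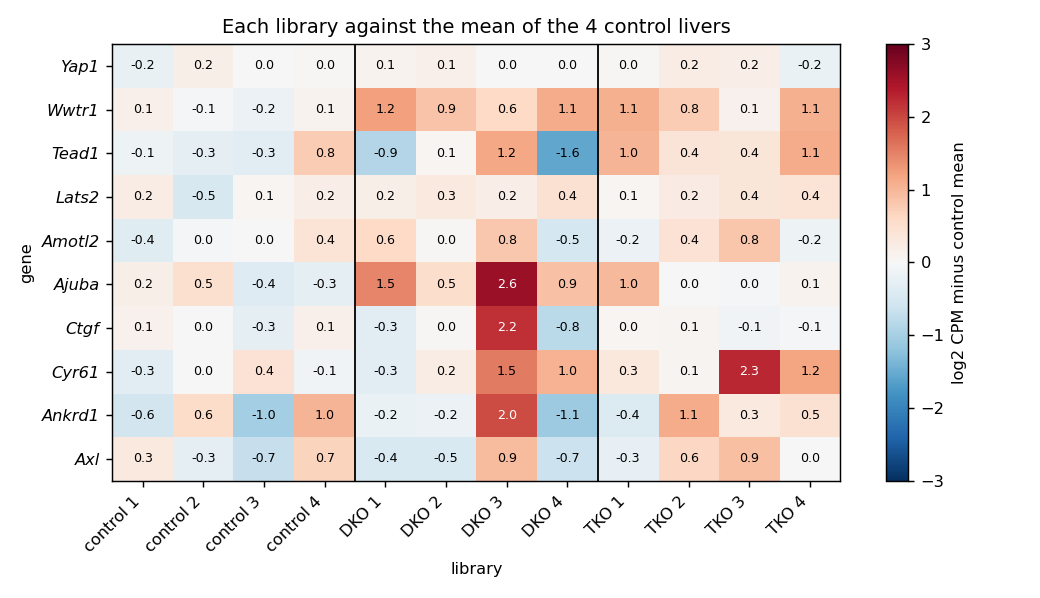
Difference of each library's log2 CPM from the mean of the 4 control livers (colour and printed value) for the 10 genes (rows) in the 12 libraries (columns), with black lines between the groups. Wwtr1 is above the control mean in all 8 tumors, and the column of DKO-labelled tumor 3 holds the highest values for Ctgf, Ankrd1, Axl, Ajuba and Tead1.

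DKO-labelled tumor 3 and TKO-labelled tumor 3, which held the highest Ctgf and Cyr61 respectively, also had high levels of some markers of cells other than hepatocytes. In DKO-labelled tumor 3 the 11 stellate cell and fibroblast markers summed to 632 CPM, the highest of the 12 libraries. The sum was 190 to 259 CPM in the other tumors of that label, 284 to 460 in control livers and 246 to 455 in the tumors labelled TKO. Dcn alone gave 299 of the 632 CPM. Col1a1 (37.0 CPM) and Col1a2 (36.8 CPM) were exceeded in control livers, which reached 42.8 and 77.5 CPM. The remaining markers of the list were each highest in this tumor. Its 7 biliary markers summed to 123 CPM, also the highest, against 32.7 to 75.8 in the other tumors of that label, 43.5 to 61.0 in control livers and 48.9 to 68.0 in the tumors labelled TKO. Spp1 alone gave 77.7 of the 123 CPM, against 11.9 to 26.4 CPM in the other tumors of that label. The first rank of the biliary sum therefore rested on this gene, which is also among the liver genes linked to YAP1 below. In TKO-labelled tumor 3 the 8 endothelial markers summed to 372 CPM, against 193 to 222 in the other tumors of that label and 154 to 237 in control livers. Its 6 macrophage markers summed to 580 CPM, against 131 to 350 in the other tumors of that label. Control livers had 193 to 517 CPM for the macrophage markers, so that sum was little above the highest control. Both sums were the highest of the 12 libraries. DKO-labelled tumor 4, which held the highest Nt5e and Igfbp3 among the further targets described below, did not share these high sums. It had 194 CPM for stellate cell and fibroblast, 32.7 for biliary, 63.0 for macrophage and 204 for endothelial markers. No marker of these lists was at 0 in all libraries. The level of Wwtr1 was the lowest of its label both in DKO-labelled tumor 3 (28.5 CPM) and in TKO-labelled tumor 3 (20.7 CPM). The part of these cells in the values of Wwtr1, Ctgf, Axl, Tead1, Ajuba, Ankrd1, Cyr61 and Amotl2 was not tested.

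**Figure D4:**
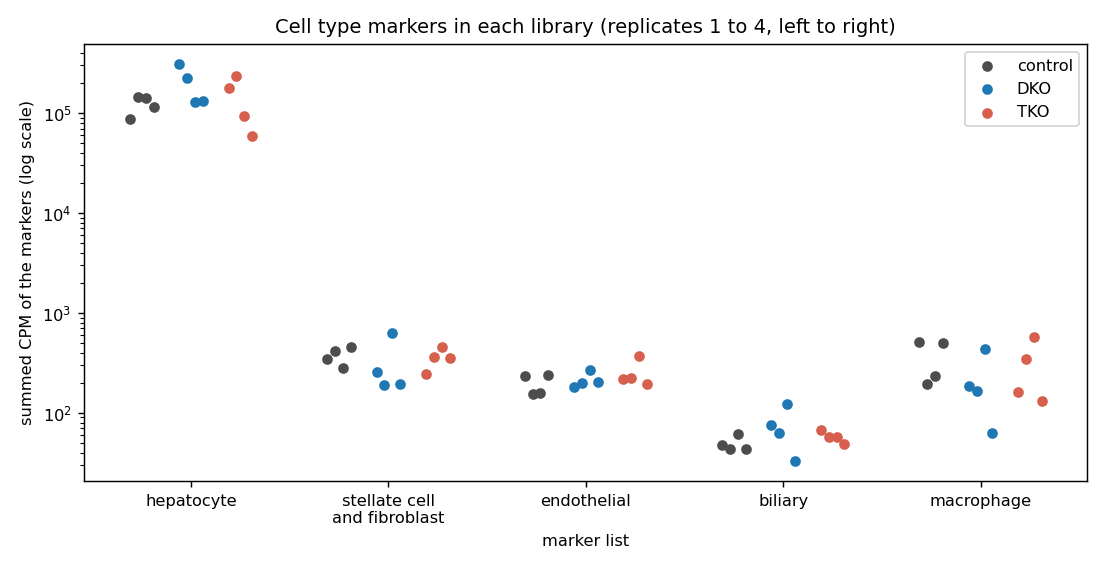
Summed CPM of the markers of 5 cell types (vertical axis, log scale) in the control livers and the tumors labelled DKO and TKO; each point is 1 library, replicates 1 to 4 from left to right. DKO-labelled tumor 3 is the highest point for stellate cell and fibroblast markers (632 CPM) and biliary markers (123 CPM), and TKO-labelled tumor 3 for endothelial markers (372 CPM) and macrophage markers (580 CPM). Spp1 alone gave 77.7 of the 123 CPM of the biliary markers, and Dcn alone 299 of the 632 CPM of the stellate cell and fibroblast markers.

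The other genes of the pathway were taken from a list of 30 Hippo regulators (kinases, scaffolds, junction proteins and the other TEAD genes), all of which passed the filter. In the tumors labelled DKO 1 of the 30 passed the threshold (all genes 2.42%), 23 had a log2 fold change above 0 (all genes 51.6%) and the median was 0.18 (all genes 0.02). The called gene was Map4k4, a kinase that can activate LATS alongside the MST kinases. It was 9.79, 9.22, 9.69 and 8.86 CPM in control livers 1 to 4 and 23.7, 20.5, 18.6 and 31.4 CPM in the tumors labelled DKO. All of the latter were above the controls, with a log2 fold change of 1.33, a fold of 2.51 (SE 0.289, adjusted p = 0.0451), and the call held in 4 of the 12 fits that left out 1 library (adjusted p 0.0188 to 0.135). In the tumors labelled TKO Map4k4 was 16.2, 23.2, 10.7 and 33.0 CPM, again above every control, and its log2 fold change of 1.14 (SE 0.288, adjusted p = 0.132) did not pass. None of the 30 passed for the TKO label (all genes 0.0864%), where 24 were above 0 (all genes 52.5%) and the median was 0.23 (all genes 0.02). An unadjusted p below 0.05 was found for 8 of the 30 under either label, against 24% of all genes for DKO and 16.3% for TKO. The lowest p-values for the TKO label after that of Map4k4 were those of the angiomotin gene Amot (0.97, adjusted p = 0.201) and the atypical cadherin Dchs1 (0.87, adjusted p = 0.215). DESeq2 called 5 of the 30 for the DKO label (Map4k4, Frmd6, Amot, Rassf1 and Dchs1), all higher, and Map4k4 for the TKO label, against 9.95% and 3.32% of all genes. Between the lines none passed with either tool, 5 had an unadjusted p below 0.05 (all genes 9%), 12 were above 0 (all genes 51.2%) and the median was -0.03 (all genes 0.01). The lowest p-values there were those of the 3 genes named next. The MST1 kinase gene Stk4 (-0.30, adjusted p = 0.487) and its partner Mob1a (-0.30, adjusted p = 0.492) were lower and Tead3 (0.53, adjusted p = 0.504) was higher in each tumor labelled TKO than in any labelled DKO. The kinase gene Taok1 (-0.32, adjusted p = 0.554) was also lower in each. It is outside the naming rule and was added after its values were seen. With it, 4 of the 30 were apart between the lines, against 4.87% of all genes. Against the control livers 5 of the 30 were apart for the DKO label, all higher (all genes 16.2% in either direction). For the TKO label 3 were apart, all higher (all genes 7.67% in either direction).

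A second list held 16 further YAP/TEAD targets known mainly from cultured cells, 14 of which were tested. None passed with edgeR in any of the 3 comparisons, where 3, 1 and 3 of 14 had an unadjusted p below 0.05 (all genes 24%, 16.3% and 9%). Values above 0 were found for 8, 10 and 3 of 14 (all genes 51.6%, 52.5% and 51.2%), and the medians were 0.22, 0.11 and -0.18. Nt5e, the ectonucleotidase CD73, had the largest difference. It was 8.23, 6.15, 4.61 and 6.30 CPM in control livers 1 to 4 and 10.3, 34.8, 13.8 and 151 CPM in the tumors labelled DKO, all above the controls but with a wide spread. Its log2 fold change was 3.05 (SE 0.765, adjusted p = 0.0552 with edgeR and 0.000645 with DESeq2), and without DKO-labelled tumor 4 it was 1.63 (adjusted p = 0.0949). Igfbp3, a binding protein of insulin-like growth factors, was 24.3 to 38.2 CPM in control livers and 35.6, 32.4, 116 and 241 CPM in the tumors labelled DKO, which overlapped, with a log2 fold change of 1.86 (SE 0.557, adjusted p = 0.0806 with edgeR and 0.0120 with DESeq2), or 1.07 (adjusted p = 0.179) without that tumor. The third of the lowest p-values for this label was that of Crim1 (0.93, adjusted p = 0.195). DESeq2 called Nt5e and Igfbp3 for the DKO label and no further target for the TKO label, against 9.95% and 3.32% of all genes. For the TKO label the 3 lowest p-values belonged to Dock5 (-0.36, adjusted p = 0.239), Nt5e (1.30, adjusted p = 0.411) and Crim1 (0.61, adjusted p = 0.496). Between the lines they belonged to Nt5e (-1.76, adjusted p = 0.542), Dock5 (-0.34, adjusted p = 0.554) and Igfbp3 (-1.27, adjusted p = 0.554), and without DKO-labelled tumor 4 the values of Nt5e and Igfbp3 were -0.34 and -0.48. The highest values of Nt5e and Igfbp3 were both in DKO-labelled tumor 4, in which Ctgf (5.54 CPM), Tead1 (2.12 CPM) and Amotl2 (15.8 CPM) were at their lowest of the 12 libraries. The targets thus did not share one ranking of the tumors.

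**Figure D5:**
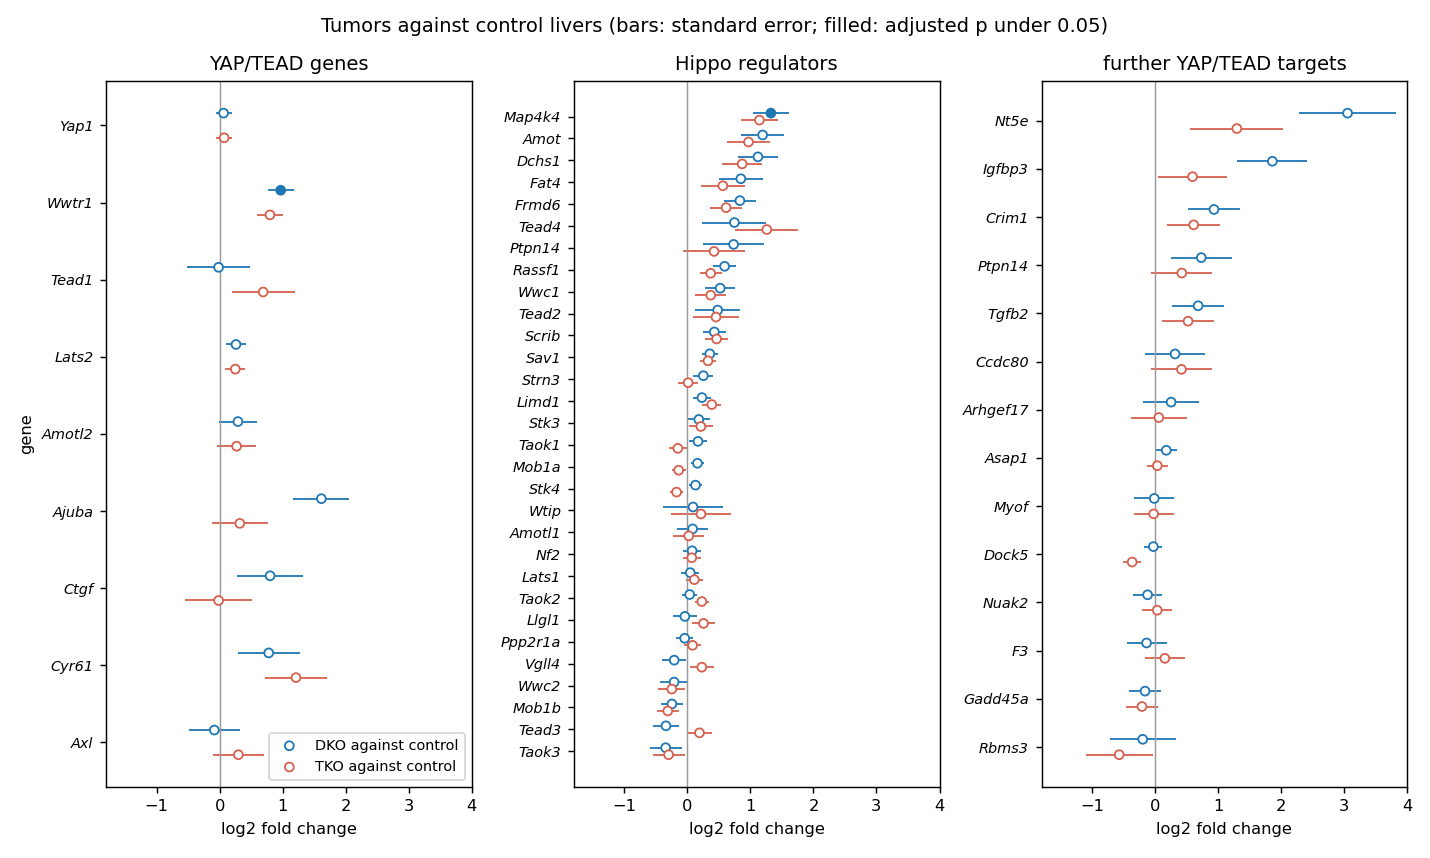
Log2 fold changes against the control livers (horizontal axes) for the 9 tested YAP/TEAD genes, 30 Hippo regulators and 14 further targets (vertical axes), in blue for the tumors labelled DKO and in red for those labelled TKO. Bars are standard errors and filled points passed an adjusted p of 0.05; these were Wwtr1 (0.97) and Map4k4 (1.33), both for the DKO label.

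The 2 tested genes whose log2 CPM correlated most closely with each member over the 12 libraries are given as a description, since the libraries share groups and depth. Each pair was also picked as the highest among all tested genes, so high values follow from the choice. By rank (Spearman) the values ran from 0.476 (Tmem45a with Ctgf) to 0.972 (Emilin1 with Axl). For Wwtr1 they were Enc1 (Pearson r = 0.958), an actin-binding kelch protein, and Eogt (0.950), which adds N-acetylglucosamine to extracellular proteins. For Axl they were Adgra2 (0.959), an adhesion receptor of vessels, and Emilin1 (0.953), an elastic fibre glycoprotein. For Amotl2 they were Glb1l (0.892) and Vwf (0.872), the von Willebrand factor of endothelial cells. For Ctgf they were Igkv4-91 (0.962), an immunoglobulin light chain segment, and Tmem45a (0.928); without DKO-labelled tumor 3, left out after its values were seen, these fell to 0.717 and 0.432. For Cyr61 they were Atp6v0c (0.920) and Ddx41 (0.850). For Yap1 they were Llgl2 (0.937) and Maml1 (0.918), for Tead1 Rab27a (0.933) and Haus1 (0.914), for Lats2 Tmem229b (0.945) and Wdr7 (0.927), and for Ajuba Mamld1 (0.877) and Lmcd1 (0.876). For Ajuba the 2 values were 0.823 and 0.751 without that tumor, and for the other 7 members they were 0.819 to 0.966. Yap1 and Wwtr1 themselves had an r of -0.05.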

How the data were processed

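Poly(A)-selected RNA of 12 mouse livers or liver tumors was sequenced on a SOLiD instrument. The authors used BWA to map the reads to mm9 (NCBI37) and featureCounts to assign them to genes, and they deposited raw counts that were not normalized; versions, strand setting and treatment of multi-mapped reads are not given in the sources used here. Groups were taken from the sample labels, and the study used 4 livers per condition. Reads shared between near-identical genes were not resolved. Of the 26301 Entrez genes, 24191 had a symbol (99.4% of counts).

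Differential expression was tested in R 4.3.3 by edgeR 4.0.16 (glmQLFTest), with TMM scaling, the default low-count filter and 1 mean per group over all 12 libraries. P-values were adjusted over 13882 genes by the Benjamini-Hochberg method, with a threshold of 0.05. Standard errors are the fold change divided by the square root of F. Log2 CPM used a prior count of 2. RPKM and mm9 positions used GENCODE vM1 exons. The steps were tested on simulated data. Alternatives were DESeq2 1.42.0 (the study's tool), its size factors in edgeR, total counts as the only scaling, other filters, 8 libraries alone, a replicate block, voom with quality weights (limma 3.58.1), a sex-linked covariate, an adjusted p of 0.1 and each library left out. The 10 genes and all lists were chosen with earlier results of these data known, the lists from general knowledge. Of each list, genes past the threshold are named, otherwise the 3 with the lowest p. Control livers 2 and 3 were the closest control pair but differed beyond sampling noise and were counted as 2. Their column codes share a letter, the meaning of which is not given. P-values set a difference between groups against the spread between these samples, estimated from all 12 libraries.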

Additional observations from a re-analysis of the deposited data

Results flagged for a closer look

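In 30 groups of 4 libraries (10 genes in 3 groups) the highest or lowest library was compared with the others by its gap relative to the range (Dixon's criterion). Chance alone passes it in about 1 of 20 groups if values are normally distributed and groups independent. CPM values need not be normal and the genes share libraries, so the count of groups is not set against that rate. In 5 groups the highest library stood out. Tumor 3 of those labelled DKO did so for 3 genes. Ctgf was 45.3 CPM there against 5.54 to 9.97 in the other tumors of that label. Axl was 61.5 CPM against 20.3 to 23.5. Ankrd1 was 1.54 CPM, or 26 counts, against 0.0590 to 0.237. Tead1 was 11.1 CPM in control liver 4 against 5.08 to 5.86 in the other control livers, and Ajuba was 5.43 CPM in TKO-labelled tumor 1 against 2.61 to 2.91 in the others of that label.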

How the results depend on the processing

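The count of called YAP/TEAD genes for the DKO label (1) was 2 with DESeq2, voom or an adjusted p of 0.1, and 0 with total counts as the only scaling or with the sex-linked covariate; for the TKO label (0) it was 1 with DESeq2. The count of Hippo regulators for the DKO label (1) was 5 with DESeq2 or an adjusted p of 0.1, 6 with voom, 3 with the replicate block, 2 with the 8 libraries alone, and 0 with total counts or the covariate; for the TKO label (0) it was 1 with DESeq2. The count of further targets for the DKO label (0) was 2 with DESeq2 or an adjusted p of 0.1 and 1 without a filter. With 1 library left out, each of these 5 counts ranged from 0 to 1, and the called genes over all genes from 0 to 651 for the DKO label (336 with all 12) and 0 to 231 for the TKO label (12). Over all genes the DKO count (336) was 1491 with DESeq2, 1804 with voom, 759 with the 8 libraries alone, 509 with the replicate block and 6 with the covariate, the TKO count (12) was 498, 97, 9, 1 and 5, and the count between lines (0) was 56 with DESeq2; without a filter the TKO count was 22. Total counts as the only scaling called 59 genes for the DKO label, 88.1% of them higher (58.3% with TMM), and moved the median log2 fold change of all genes to 0.07, 0.17 and 0.11 in the DKO, TKO and between-line comparisons. With it Tead1 (0.083, DKO label), Ctgf (0.12, TKO label), Lats2 (0.094) and Amotl2 (0.071, both between lines) changed sign; all but Tead1 were below those medians. The sign also changed for Yap1 between lines with DESeq2 (-0.000229) and its size factors (-0.00076), for Ctgf and the TKO label with voom (0.11), and for Axl and the DKO label with voom (0.086) and the covariate (0.000305). All 12 libraries had low Xist (0.0711 to 0.460 CPM) and high Ddx3y (47.9 to 81.2 CPM), so the covariate did not separate sexes.

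With 1 library left out, log2 fold changes that changed sign ranged as follows. For the DKO label they were -0.0073 to 0.12 (Yap1), -0.75 to 0.32 (Tead1), -0.35 to 1.09 (Ctgf) and -0.61 to 0.17 (Axl). For the TKO label they were -0.10 to 0.031 (Ctgf) and -0.0089 to 0.50 (Ajuba). Between lines they were -0.046 to 0.090 (Yap1), -0.062 to 0.056 (Lats2), -1.11 to 0.34 (Ctgf), -0.20 to 0.81 (Cyr61) and -0.26 to 0.19 (Amotl2). None of these values passed the threshold. Of the list genes named, Spp1 (-0.86 to 0.22) and Wisp2 (-0.26 to 0.76) changed sign between lines. Wwtr1 for both labels and Map4k4 for the DKO label kept their sign in each alternative run.

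Replicate numbers repeat between groups but belong to different mice. In 12 same-numbered pairs, deviations from the group means correlated above 0.1 in 5 (range -0.17 to 0.37), short of all 12. The numbers were therefore not used as pairs. Of the 12 libraries, 6 correlated best with their own number, a hint from the data only. The numbers are those of the sample titles and need not mark a shared origin, so this check cannot show or exclude one. The count columns carry letter codes, some shared between groups. Their meaning is not given, and they were not tested. With the replicate block, Wwtr1 had an adjusted p of 0.0159 (DKO label) and 0.104 (TKO label). At 9165812 to 16424973 counts per library, Ankrd1 was too low to compare. The causes of these shifts were not tested.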

Other observations

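Other genes linked to YAP1 in the liver, and genes of the immediate-early and serum response programs that share targets with the complex, were examined as lists. Of 11 tested liver genes linked to YAP1, 1 passed the threshold for the DKO label (all genes 2.42%), with 4 at an unadjusted p below 0.05 (all genes 24%) and 9 above 0 (all genes 51.6%). It was Afp, the fetal liver protein alpha-fetoprotein, at 2.37 to 4.61 CPM in control livers and 29.7, 29.7, 5.91 and 104 CPM in the tumors labelled DKO (log2 fold change 3.68, SE 0.709, adjusted p = 0.0392; called in 4 of the 12 fits that left out 1 library; 2.72 without DKO-labelled tumor 4, adjusted p = 0.0548). In the tumors labelled TKO Afp was 1.69 to 6.25 CPM, and the difference between the lines was -3.42 (SE 0.693, adjusted p = 0.281 with edgeR and 0.000179 with DESeq2). Afp, Birc5, Jag1 and Sox4 were higher in each DKO-labelled tumor than in every control liver (4 of 11, all genes 8.87%). Birc5, Jag1 and Sox4 did not pass the threshold in edgeR, and DESeq2 called Birc5 and Jag1 beside Afp (3 of 11, all genes 9.95%). None passed for the TKO label with edgeR, where 3 were at an unadjusted p below 0.05 (all genes 16.3%) and 9 above 0 (all genes 52.5%). The lowest p-values there were those of Birc5 (2.08, adjusted p = 0.146, and 0.0209 with DESeq2), Sox4 (1.38, adjusted p = 0.166) and Jag1 (0.65, adjusted p = 0.195). DESeq2 called Birc5 alone for this label (1 of 11, all genes 3.32%). Jag1 was higher in each TKO-labelled tumor than in every control liver (1 of 11 apart, all genes 7.67% in either direction). Between the lines 3 of 11 were above 0 (all genes 51.2%) and 1 was at an unadjusted p below 0.05 (all genes 9%). DESeq2 called Afp alone there (1 of 11, all genes 0.398%). After Afp the lowest edgeR p-values were those of Cdh2 (0.32, adjusted p = 0.676) and Spp1 (-0.58, adjusted p = 0.727).

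Of 13 tested immediate-early and serum response genes, 4 passed for the DKO label (all genes 2.42%) and all 4 were higher (all genes 1.41%): the stress-induced factor Atf3 (2.85, SE 0.500, adjusted p = 0.0333), the actin filament genes Tpm1 (0.84, SE 0.170, adjusted p = 0.0425) and Actg1 (0.83, SE 0.173, adjusted p = 0.0425), and Jun (0.98, SE 0.235, adjusted p = 0.0498). Leaving out 1 library at a time, the calls held in 6, 5, 5 and 2 of 12 fits. For this label 7 had an unadjusted p below 0.05 (all genes 24%), and DESeq2 called 7 (Fos, Jun, Atf3, Vcl, Tpm1, Myh9 and Actg1; all genes 9.95%). None of the 13 passed for the TKO label or between the lines with edgeR, where 5 and 1 had an unadjusted p below 0.05 (all genes 16.3% and 9%). DESeq2 called Fos, Jun and Atf3 for the TKO label (all genes 3.32%) and none between the lines. The lowest edgeR p-values for the TKO label were those of Atf3 (1.96, adjusted p = 0.130), Jun (0.86, adjusted p = 0.139) and the focal adhesion gene Vcl (0.38, adjusted p = 0.152), and between the lines those of Tpm1 (-0.48, adjusted p = 0.476), Atf3 (-0.88, adjusted p = 0.585) and Myh9 (-0.47, adjusted p = 0.627). Of the 6 genes of the CCN family, 5 were tested and none passed with edgeR or DESeq2, with 0, 2 and 1 at an unadjusted p below 0.05 (all genes 24%, 16.3% and 9%). Beside Ctgf and Cyr61, the lowest p-values were those of Wisp2 (1.02, adjusted p = 0.295, for the DKO label, 1.52, adjusted p = 0.220, for TKO, and 0.50, adjusted p = 0.790, between the lines) and Nov (-0.96, adjusted p = 0.449, for TKO, and -1.47, adjusted p = 0.516, between the lines).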
